A study of Mus musculus with 11 samples.

Results

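The 8 genes described here were measured in 11 bulk RNA-seq libraries and are 8 of the 22609 genes in the count table. They were taken by name. Chat, Slc5a7, Slc18a3, Mnx1, Isl1, Prph and Calca are genes of cholinergic motor neurons, and Uts2, which codes for the peptide urotensin II, is read against these 7 to see whether it follows them. Uts2 was selected on its measured level in the double knockout, the other 7 were chosen by function with results of these data known, and the levels and fold changes of Uts2 are given as a description, without a test. All 8 genes passed the filter of at least 10 counts over all libraries. The libraries were made from polyadenylated RNA of tissue labelled cerebellar hemisphere, taken from littermates (C57BL/6J in the descriptions, mixed C57BL/6J;129 in the growth protocol) of both sexes at postnatal day 30 in the sample descriptions and day 32 in the growth protocol. Control mice (n = 3) were NfascFx/Fx;AnkGFx/Fx, with both genes floxed and without Cre by the labels, although the study's results text writes their genotype with Pcp2-Cre. The NFKO mice (n = 3) were Pcp2-Cre;NfascFx/Fx, the AnkGKO mice (n = 2) were Pcp2-Cre;AnkGFx/Fx, and the DKO mice (n = 3) were Pcp2-Cre;NfascFx/Fx;AnkGFx/Fx. All 4 genotypes therefore carried floxed alleles, but not the same ones. By these genotypes control and DKO carried both, NFKO that of Nfasc and AnkGKO that of AnkG. The Pcp2 promoter drives Cre mainly in Purkinje cells, so the deletions are not meant to occur in motor neurons. Whether they were limited to Purkinje cells in these libraries was not tested.

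Motor neurons send axons out of the brain stem and spinal cord to muscle and use acetylcholine as their transmitter. Choline acetyltransferase, encoded by Chat, makes acetylcholine. The product of Slc18a3 loads it into synaptic vesicles, and the choline transporter encoded by Slc5a7 brings choline back into the terminal. Slc18a3 lies inside an intron of Chat, an arrangement known as the cholinergic gene locus. Mnx1 and Isl1 encode homeodomain transcription factors that specify motor neurons, and Isl1 also serves sensory ganglion neurons. Prph encodes peripherin, an intermediate filament of neurons with axons in peripheral nerves, sensory as well as motor. Calca encodes calcitonin and the calcitonin gene-related peptide (CGRP), which motor neurons and many pain-sensing neurons release. Urotensin II is a cyclic peptide known both as a vasoactive hormone and as a product of motor neurons of the brain stem and cord.

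The part of Uts2 that codes for this peptide is shown first, since the gene is read by its RNA alone in what follows. Its last coding exon spans chr4:151086024-151086134 of GRCm39 on the plus strand, without the untranslated bases behind it, and the capitals mark the 6 codons of the cyclic core:
Uts2 last coding exon: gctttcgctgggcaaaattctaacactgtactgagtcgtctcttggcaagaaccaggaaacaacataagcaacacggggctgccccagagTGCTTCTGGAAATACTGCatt
The core lay in frame with the annotated coding sequence, and 1 codon followed it. Stretches of 250 bases before the start of the canonical transcript are shown for Chat and Slc18a3, the pair that shares a locus, and for Calca, the motor neuron gene most like Uts2 over the libraries. For Chat that transcript starts inside the outer limits of the gene, so the last bases of its window lie within the gene. All 3 are on the minus strand of GRCm39, and each is printed in the direction of its gene:
Chat, chr14:32187915-32188164: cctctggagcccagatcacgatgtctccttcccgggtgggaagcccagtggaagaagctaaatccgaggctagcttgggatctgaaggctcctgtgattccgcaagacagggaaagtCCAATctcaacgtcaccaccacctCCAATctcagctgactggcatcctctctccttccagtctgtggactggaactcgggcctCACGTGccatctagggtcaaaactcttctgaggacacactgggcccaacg
Slc18a3, chr14:32186808-32187057: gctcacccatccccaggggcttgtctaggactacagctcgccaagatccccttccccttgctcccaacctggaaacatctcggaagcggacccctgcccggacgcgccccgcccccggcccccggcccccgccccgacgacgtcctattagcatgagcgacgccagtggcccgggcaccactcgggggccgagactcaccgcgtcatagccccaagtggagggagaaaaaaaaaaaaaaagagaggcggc
Calca, chr7:114235593-114235842: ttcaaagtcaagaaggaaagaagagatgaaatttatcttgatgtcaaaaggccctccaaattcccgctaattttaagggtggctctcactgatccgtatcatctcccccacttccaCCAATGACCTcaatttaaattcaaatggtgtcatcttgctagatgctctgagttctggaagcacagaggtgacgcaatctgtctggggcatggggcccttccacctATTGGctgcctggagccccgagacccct
Capitals mark matches, on either strand, to TATAAA (the TATA box), to CCAAT (the CCAAT box), to TGACGTCA (the cyclic AMP response element), to CACGTG (an E-box), to TAATTA (the homeodomain core) and to AGGTCA (the nuclear receptor site). Chat held CCAAT at 133 and 109 bases before that transcript start and CACGTG at 50. Calca held CCAAT at 134 and 28 bases and AGGTCA at 130, where it shares 1 base with CCAAT. The window of Slc18a3 matched none of the 6 and overlaps an exon of a non-coding RNA gene, Litchi. Over 21757 windows of this length, CCAAT was found in 36.5%, AGGTCA in 13.1%, TATAAA in 11.9%, CACGTG in 6.26%, TAATTA in 5.16% and TGACGTCA in 1.7%, so the matches describe letters and no site of binding.

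The libraries held 38890851 to 55822361 counts on genes. Levels are given as CPM, the counts on a gene for every 1000000 counts of the library, scaled by the TMM method. A floor of 3 counts lay at 0.0546 to 0.0780 CPM. The floor covers counting error only. Ank3, which encodes AnkG, was at 353 to 375 CPM in control, 385 to 407 in NFKO, 156 and 200 in AnkGKO and 160 to 185 in DKO, lower in the libraries labelled as its knockouts. Pcp2, a Purkinje cell gene, was at 0.103 and 0.174 CPM in AnkGKO and 0.210 to 0.374 in DKO. In which cells Ank3 was lower was not tested. Nfasc was at 661 to 718 CPM in control, 622 to 701 in NFKO, 717 and 953 in AnkGKO and 559 to 606 in DKO, and was not called in NFKO (log2 fold change -0.08, standard error 0.095, edgeR adjusted p = 0.969). The tissue label was set against markers. The 4 Purkinje cell genes summed to 895 CPM in Control 1, 999.95 in NFKO 1 and 153 to 266 in the other 9 libraries. Of these genes, Pcp2 was at 26.3 and 28.3 CPM in those 2 libraries and at 2.14 or lower elsewhere, while Calb1 was at 30.6 to 125, Itpr1 at 108 to 650 and Car8 at 7.64 to 197 CPM over all libraries. The 6 granule cell genes summed to 556 and 470 CPM in those 2 libraries and to 35.1 to 76.9 elsewhere. Hox genes of groups 6 to 9, which are genes of the spinal cord and trunk, summed to 395 to 615 CPM in every library. A pair of forebrain cholinergic genes summed to at most 0.109 CPM. The Hox genes of cord levels were thus present in every library, and the Purkinje and granule cell lists were highest in the same 2 libraries. In bulk RNA, fewer cells of a type and less RNA per cell cannot be told apart.

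The 3 cholinergic genes were well covered, with 1467 to 12558 counts per library. Chat (chr14:32129369-32187946, minus strand, 16 exons) was at 46.8, 29.5 and 52.7 CPM in control replicates 1 to 3, at 49.9, 29.7 and 35.3 in NFKO, at 34.3 and 66.7 in AnkGKO, and at 61.4, 65.7 and 57.6 in DKO. The 3 DKO libraries lay above every control and NFKO library, while AnkGKO 2 was the highest of all. Slc18a3 (chr14:32184395-32186807, minus strand, 1 exon) was at 70.9, 41.9 and 72.0 CPM in control, 87.7, 46.5 and 66.8 in NFKO, 48.9 and 116 in AnkGKO, and 97.7, 101 and 88.4 in DKO. It shares no exon base with Chat, but 75.3% of its exon bases lie opposite Litchi, which was not analysed here. The paper describes the libraries as strand-specific, but the strand used for counting is not given in the sources used here. Slc5a7 (chr17:54580020-54606076, minus strand, 9 exons) was at 145, 96.1 and 158 CPM in control, 224, 120 and 131 in NFKO, 128 and 273 in AnkGKO, and 230, 227 and 225 in DKO. The DKO libraries differed from each other by no more than 1.02-fold in Slc5a7, and the AnkGKO libraries by 2.13-fold.

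The transcription factors were rare. Mnx1 (chr5:29678032-29683636, minus strand) had 53 to 168 counts per library, and its levels were 2.21, 1.07 and 1.95 CPM in control, 2.89, 1.46 and 2.03 in NFKO, 1.403 and 3.32 in AnkGKO, and 2.47, 3.50 and 3.06 in DKO. DKO lay above control without overlap and overlapped NFKO and AnkGKO. Isl1 (chr13:116434817-116446235, minus strand), with 78 to 301 counts, was at 2.44, 1.69 and 2.19 CPM in control, 2.47, 1.502 and 2.04 in NFKO, 1.61 and 3.54 in AnkGKO, and 3.01, 7.03 and 2.58 in DKO. DKO 2 was 1.98 times as high as the next library, and the other 2 DKO libraries stood only just above the highest control.

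Prph (chr15:98952872-98956862, plus strand) was at 93.6, 46.8 and 102 CPM in control, 97.0, 40.5 and 64.2 in NFKO, 51.8 and 127 in AnkGKO, and 113, 191 and 102 in DKO. DKO 3 and Control 3 were nearly equal, at 102 CPM each when rounded. Calca (chr7:114230712-114235592, minus strand) was at 38.6, 18.4 and 35.7 CPM in control, 72.1, 33.0 and 49.3 in NFKO, 28.4 and 63.4 in AnkGKO, and 90.1, 165 and 102 in DKO. Calca was the motor neuron gene with the widest range, 9.005-fold between Control 2 and DKO 2, and the single one of the 7 whose DKO libraries all lay above all 8 others.

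**Figure D1:**
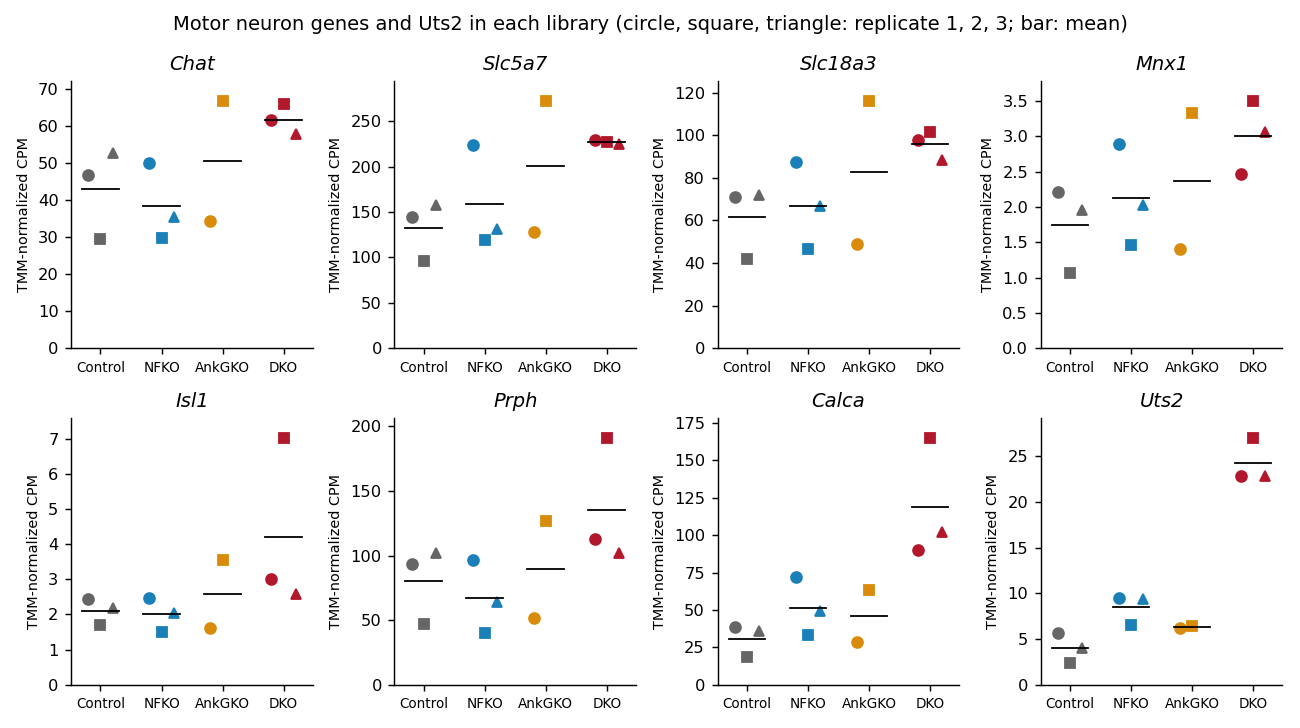
TMM-normalized CPM (y axis, from 0) of the 8 genes in each library, by genotype (x axis), with the mean of the genotype as a bar and the replicate number as the symbol. The squares of Control and NFKO and the circle of AnkGKO are low in the 7 motor neuron genes, while Uts2 in DKO (22.8 to 27.0 CPM) stands above all other libraries.

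The 7 motor neuron genes went up and down together from library to library. In Control 2, NFKO 2 and AnkGKO 1, all 7 genes took 1 of the 3 lowest ranks among the 11 libraries. In DKO 2 and DKO 3 all 7 took 1 of the 4 highest, and in AnkGKO 2 and DKO 1 it was 6 of 7. Over the 21 pairs of genes, Pearson's r of the log2 CPM was 0.75 to 0.96 (median 0.90), and on deviations from the genotype means it was 0.63 to 0.98 (median 0.92), so the genes moved together within genotypes as well. Spearman's rho was 0.82 to 0.99 (median 0.93). These correlations are over n = 11 libraries that share depth scaling and tissue composition, and are a description. Within AnkGKO the ratio of the 2 libraries was 1.95 for Chat, 2.13 for Slc5a7, 2.38 for Slc18a3, 2.37 for Mnx1, 2.20 for Isl1, 2.45 for Prph and 2.23 for Calca. That is more than the ratio of the highest to the lowest genotype mean for every one of the 7 except Calca, where the means differed 3.86-fold. Hoxc8, a gene of thoracic cord levels, moved with them. It was at 106, 7.99 and 101 CPM in control, 159, 22.03 and 72.8 in NFKO, 32.2 and 139 in AnkGKO, and 98.2, 136 and 105 in DKO, and its r with the 7 genes was 0.66 to 0.92. The same 3 libraries were the lowest in Hoxc8. The sum of the Hox genes of groups 6 to 9 had a lower r with the 7 genes, 0.45 (Isl1) to 0.78 (Mnx1). Hoxb9 was also lowest in Control 2. Hoxb8 was instead lowest in NFKO 1 and highest in NFKO 2, and Hoxb7 was lowest in AnkGKO 2 and highest in AnkGKO 1. Gabra6, a granule cell gene, had r between -0.09 and -0.02 with them. The part of these markers in the levels was not tested beyond the covariate fits given next.

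In DKO against control, all 7 motor neuron genes were higher with no overlap between the groups, beside 7.65% of all genes tested. None was called by edgeR's quasi-likelihood test (adjusted p under 0.05 and a log2 fold change of at least 0.6 either way), which called 0.0228% of all genes, and 2 of 7 had an unadjusted p under 0.05, beside 7.77% of all genes. The log2 fold change was largest for Calca, at 1.95 (standard error 0.47, adjusted p = 0.532), followed by Isl1 at 1.00 (standard error 0.41, adjusted p = 0.619). It was 0.79 for Mnx1, 0.78 for Slc5a7, 0.75 for Prph, 0.64 for Slc18a3 and 0.52 for Chat (standard error 0.30, adjusted p = 0.679), with a median over the 7 of 0.78 beside -0.00 over all genes. DESeq2, the study's own test, called 1 of the 7, Calca (log2 fold change 1.95, adjusted p = 0.00775), beside 0.284% of all genes, and the range of adjusted p for Calca over all alternatives was 0.00775 to 0.887. With Hoxc8 as a covariate, an alternative added after its values had been seen, the fold changes were closer to 0, at 0.22 for Chat (standard error 0.12), 0.28 for Slc18a3 and Prph, 0.40 for Mnx1, 0.46 for Slc5a7, 0.65 for Isl1 and 1.52 for Calca (standard error 0.22, adjusted p = 0.117).

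Against NFKO, the DKO libraries were higher without overlap in 6 of 7 genes (all but Mnx1), beside 9.32% of all genes, by narrow margins in Slc5a7 (225 against 224 CPM) and Slc18a3 (88.4 against 87.7). Of the 7, 0 were called, beside 0.615%, with 2 at an unadjusted p under 0.05 (Calca and Isl1), beside 16.2%. The log2 fold changes ran from 0.50 for Mnx1 to 1.21 for Calca (standard error 0.46, edgeR adjusted p = 0.254). Against AnkGKO, 1 of 7 was higher without overlap, Calca, beside 12.4% of all genes, and 0 were called, beside 0.171%, with 1 at an unadjusted p under 0.05, beside 8.48%. The values ran from 0.18 for Slc5a7 to 1.38 for Calca (standard error 0.53, edgeR adjusted p = 0.561). Both AnkGKO libraries weighed on these values. Without AnkGKO replicate 2, DKO against AnkGKO was 0.84 for Chat, 0.82 for Slc5a7 and 2.06 for Calca, and without AnkGKO replicate 1 it was -0.11, -0.26 and 0.91. Each of these fits leaves 1 AnkGKO library, which is assumed to vary like the other groups. DESeq2 called 0 of 7 in these 2 comparisons, beside 418 and 99 of 17557 genes.

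In the single knockouts, 0 of the 7 genes were called or lay apart from control without overlap. Taken by replicate number, Calca and Mnx1 were higher in each NFKO library than in its control, and the other genes differed in direction. No label pairs these libraries. In NFKO against control, 0 of 7 were higher without overlap (7.42% of all genes) and 0 were called (0.365%), with log2 fold changes from -0.26 for Prph to 0.74 for Calca (standard error 0.46, edgeR adjusted p = 0.847). In AnkGKO against control, 0 of 7 were higher without overlap (11.7%) and 0 were called (0.165%), with values from 0.15 for Prph to 0.59 for Slc5a7 (standard error 0.37, edgeR adjusted p = 0.998). In both, 0 of 7 had an unadjusted p under 0.05, beside 7.69% and 5.39% of all genes. DESeq2 called 0 of 7 in both, beside 159 and 102 of 17557 genes. The 3 comparisons share the control libraries, so their values stand side by side and are not independent. The interaction asks whether the double knockout differs from the sum of the single ones. In it 0 of 7 were called by edgeR (0.53% of all genes) and by DESeq2 (318 of 17557 genes). By edgeR 0 of 7 had an unadjusted p under 0.05, beside 10.3%. The estimates ran from -0.07 for Slc5a7 (standard error 0.51) to 0.86 for Prph (standard error 0.75, edgeR adjusted p = 0.763).

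**Figure D2:**
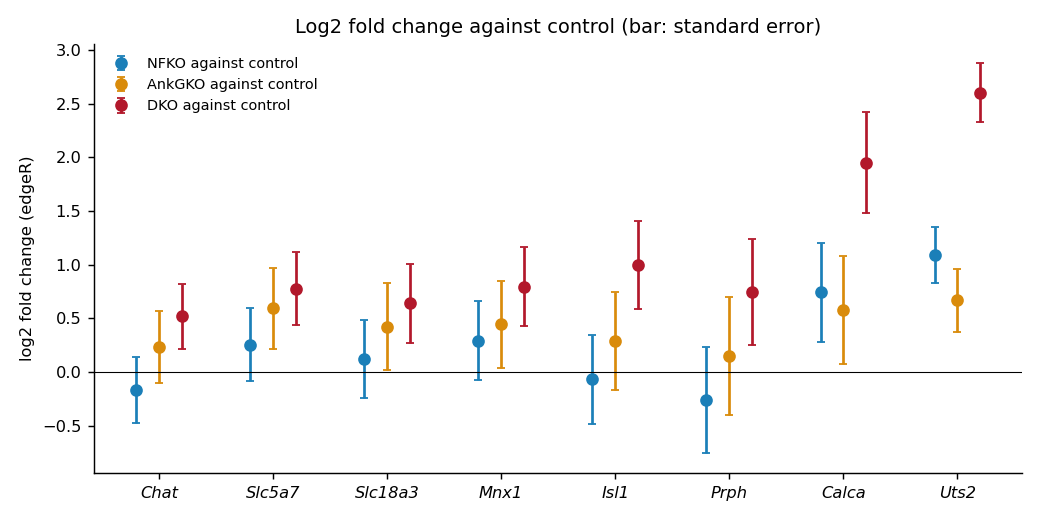
Log2 fold change against control from edgeR (y axis) of each gene (x axis) in NFKO, AnkGKO and DKO, with the standard error as a bar. The 7 motor neuron genes lie between 0.52 and 1.95 in DKO, and Uts2 at 2.60.

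DKO 2 differed from all other libraries in genes of sensory ganglia. Scn10a, a sodium channel of pain-sensing neurons, was at 54.0 CPM in DKO 2 (2312 counts) and at 0.0217 to 0.424 elsewhere. Scn11a was at 28.7 CPM against at most 0.250, Avil at 45.4 against at most 0.867, and Mrgprd at 7.36 against at most 0.0385. The 8 sensory ganglion genes summed to 195 CPM in DKO 2 and to 10.3 to 23.4 in the other libraries, and 7 of the 8 were highest there, all except Pou4f1, which was highest in Control 2. Skeletal muscle genes summed to 141 CPM in DKO 2 and to 2.17 and 3.08 in the other DKO libraries, but were higher still in NFKO 2, at 256. Schwann cell genes summed to 123 CPM in DKO 2, 96.6 in DKO 1 and 1.15 in DKO 3. They reached higher sums elsewhere, up to 130 in control, 179 in AnkGKO and 265 to 289 in NFKO. Among the 7 motor neuron genes, the 3 that sensory neurons also use stood out in this library. Isl1 was 2.51, Prph 1.79 and Calca 1.72 times the mean of DKO 1 and 3, against 1.104 for Chat, 1.00 for Slc5a7, 1.09 for Slc18a3 and 1.27 for Mnx1. Isl2, a related factor of motor and sensory neurons, followed them, with 13.0 CPM in DKO 2 and 1.33 to 5.28 elsewhere. Without DKO 2, the log2 fold change against control was 0.41 for Isl1, 0.41 for Prph and 1.64 for Calca (standard error 0.48, edgeR adjusted p = 0.306), and 0.47 for Chat, 0.59 for Slc18a3, 0.67 for Mnx1 and 0.77 for Slc5a7. Calca therefore remained the motor neuron gene with the largest difference when this library was left out, and none was called.

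**Figure D3:**
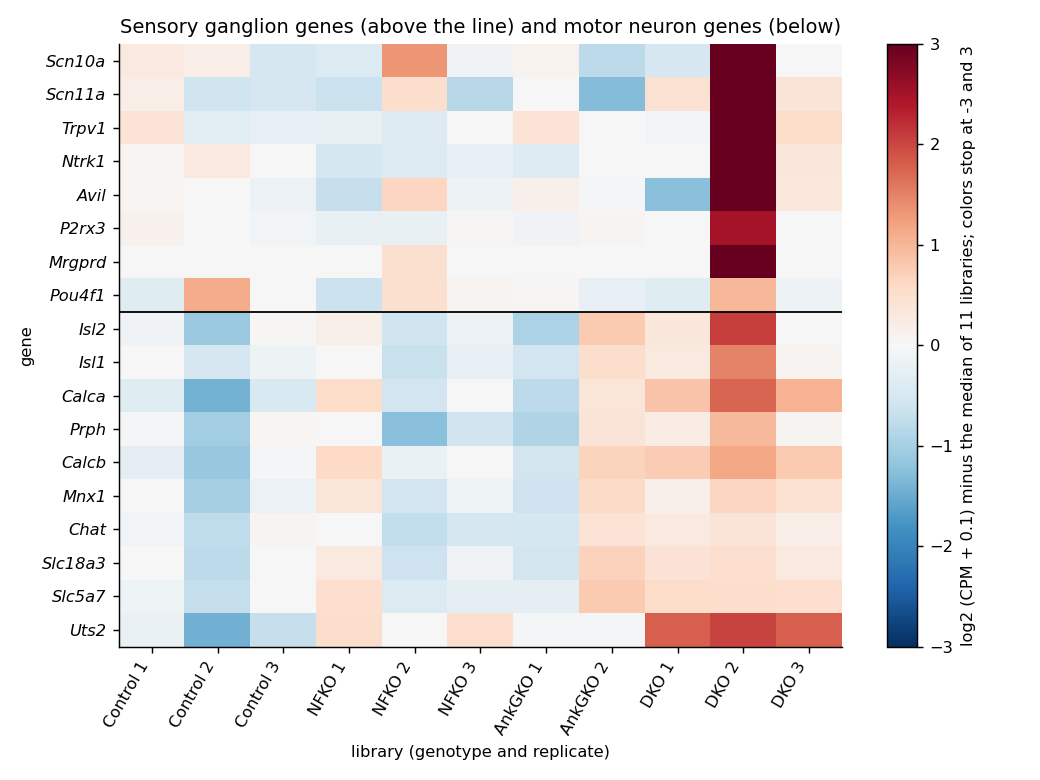
Log2 (CPM + 0.1) minus the median of the 11 libraries (color, which stops at -3 and 3) of sensory ganglion genes above the line and of motor neuron genes, Isl2 and Calcb below it, by library (x axis). DKO 2 is the column with Scn10a at 54.0 CPM, and it is also the highest in Isl1, Isl2, Prph and Calca.

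Uts2 lies on chromosome 4 of GRCm39 (chr4:151081539-151086267, plus strand) and has 4 exons with 553 bases in all. Its first exon, with 154 bases or 27.8% of the total, lies opposite the last exon of Per3, a clock gene on the minus strand, and its other exons lie in the last Per3 intron. No 50-base word of Uts2 occurs in another gene on the same strand, while 20.8% of its words occur on the opposite strand. Its level was 5.67, 2.36 and 3.98 CPM in control, 9.49, 6.53 and 9.36 in NFKO, 6.23 and 6.41 in AnkGKO, and 22.8, 27.0 and 22.8 in DKO. The raw counts were 117 to 218, 339 to 504, 295 and 302, and 976 to 1253 in that order of genotypes. Control was lowest and DKO highest, the 2 single knockouts lay between them, and AnkGKO fell just below the NFKO range of 6.53 to 9.49 CPM. Control averaged 3.999 ± 1.66 CPM (SD, n = 3). The single knockouts averaged 8.46 ± 1.67 (NFKO, SD, n = 3) and 6.32 ± 0.13 CPM (AnkGKO, SD, n = 2), and DKO averaged 24.2 ± 2.44 CPM (SD, n = 3). DKO was thus 6.05 times control, 2.86 times NFKO and 3.83 times AnkGKO, and the lowest DKO library was 2.40 times the highest NFKO library.

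From the fit over all genes, the log2 fold change of Uts2 against control was 2.60 in DKO (standard error 0.27), 1.09 in NFKO (standard error 0.26) and 0.67 in AnkGKO (standard error 0.29), and these comparisons share the control libraries. It was 1.52 for DKO against NFKO (standard error 0.26) and 1.94 for DKO against AnkGKO (standard error 0.30). The interaction estimate was 0.85 (standard error 0.39), which was the excess of DKO over the sum of the 2 single differences on the log2 scale. Since these contrasts chose the gene, no test is given. The DKO value was 2.52 without DKO 2, 2.32 with Chat as a covariate and 2.37 with Hoxc8 as a covariate. Per3, whose reads could be mixed with those of the first Uts2 exon if strand was not used, was at 27.9 to 35.9 CPM in control and 26.5 to 30.1 in DKO (log2 fold change -0.20, standard error 0.13, edgeR adjusted p = 0.694). The nearest other protein-coding genes are Tnfrsf9, 50980 bases before Uts2, and Vamp3, 45490 bases after it. Tnfrsf9 was at 0.0364 to 0.227 CPM in all libraries, and Vamp3 at 65.8 to 68.2 in control and 59.4 to 72.9 in DKO (log2 fold change -0.02, edgeR adjusted p = 0.969).

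**Figure D4:**
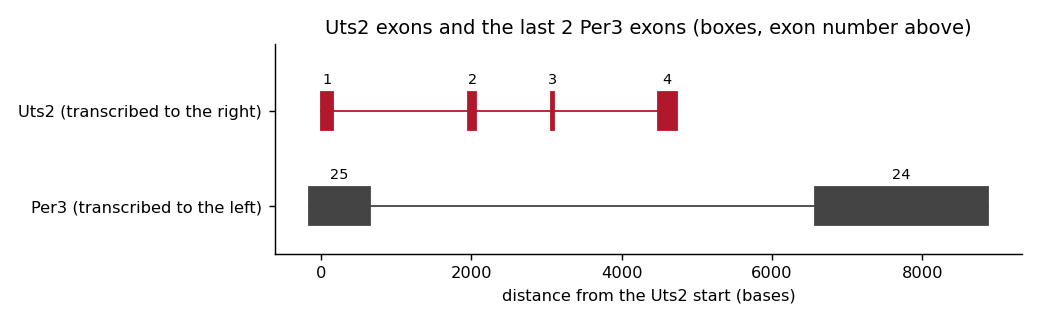
Exons of Uts2 and the last 2 exons of Per3 (boxes with their numbers), drawn to scale by distance from the Uts2 start in bases (x axis). Exon 1 of Uts2 (154 bases) lies within the last exon of Per3, and the other 3 Uts2 exons lie in the intron.

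Uts2 followed the motor neuron genes only in part. Its r with them was 0.61 to 0.92 (median 0.65, n = 11), where the 7 had a median of 0.90 among themselves. It was 0.92 with Calca, 0.72 with Mnx1, 0.69 with Slc5a7, 0.65 with Slc18a3 and with Isl1, and 0.61 with Chat and with Prph. On deviations from the genotype means, the median r of Uts2 with the 7 genes was 0.63, against 0.92 among the 7. The libraries show where they part. Between AnkGKO 1 and AnkGKO 2 Chat went from 34.3 to 66.7 CPM, while Uts2 went from 6.23 to 6.41. NFKO 2 and Control 2 were alike in Chat, at 29.7 and 29.5 CPM, yet Uts2 was 6.53 in the former and 2.36 in the latter. Control 2 was the lowest library for Uts2 as well, and DKO 2 the highest. Without AnkGKO replicate 2, the median r rose to 0.81, and without Control replicate 2 it was 0.55.

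Per 100 counts of Chat there were 7.55 to 12.1 counts of Uts2 in control, 19.03 to 26.5 in NFKO, 18.2 and 9.61 in AnkGKO, and 37.1 to 41.1 in DKO. These are ratios of raw counts within a library, so they are free of depth scaling. DKO lay above all 8 other libraries in the ratio to Chat, and likewise in the ratios to Slc5a7 (9.91 or more against at most 7.12), Slc18a3 (23.3 against 14.0) and Mnx1 (746 against 462). In the ratios to Isl1, Prph and Calca it did not, and the library that overlapped was DKO 2 (384, 14.1 and 16.3). DKO 1 and DKO 3 lay above all 8 others in these as well. They were at 757 or more against at most 458 for Isl1, 20.2 against 16.1 for Prph and 22.4 against 21.9 for Calca. Per 100 counts of Calca there were 11.1 to 14.7 of Uts2 in control, 13.2 to 19.8 in NFKO, 21.9 and 10.1 in AnkGKO, and 16.3 to 25.3 in DKO. Relative to the cholinergic genes, Uts2 was thus highest in the 3 DKO libraries. Relative to Calca the DKO range overlapped those of NFKO and AnkGKO, through DKO 2 alone.

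**Figure D5:**
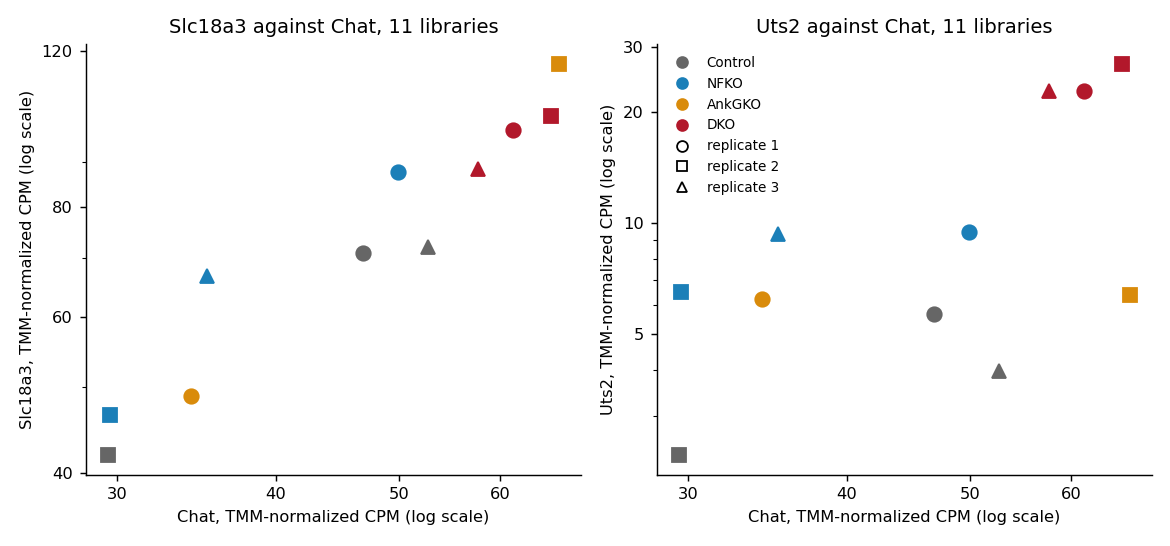
Slc18a3 (left) and Uts2 (right) against Chat in each library, all in TMM-normalized CPM on log axes, with color for genotype and symbol for replicate. Slc18a3 follows Chat (r = 0.96 over the 11 libraries), while the 3 DKO libraries stand above the rest in Uts2 and AnkGKO 2, the highest in Chat at 66.7 CPM, has 6.41 CPM of Uts2.

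Among 13857 genes with a mean of at least 50 counts per library, the 5 with a pattern most like Uts2 were Calca (r = 0.92), Glyat (0.91), Prox2 (0.90), Slc44a2 (0.90) and Ehd4 (0.89). Uts2 was selected on its DKO level, so this likeness favours genes that are high in DKO. On deviations from the genotype means, Calca held rank 298 for Uts2 (r = 0.74), and the 5 leading genes were all others. Glyat was at 1.23 to 2.63 CPM in control and 4.46 to 6.02 in DKO, and Slc44a2 at 59.6 to 64.7 in control and 72.0 to 77.8 in DKO. In NFKO and AnkGKO, Glyat was at 3.48 CPM or lower and Slc44a2 at 65.9 or lower. Their DKO libraries were thus also the highest, by smaller factors. Chat held rank 674 for Uts2, and Uts2 held rank 1184 for Chat. The 5 most like Chat were Acly (r = 0.99), Dffa (0.98), Prune2 (0.98), Slc10a4 (0.98) and Fgf1 (0.97). Acly encodes ATP citrate lyase, which makes acetyl-CoA, and Slc10a4 a protein of cholinergic and aminergic vesicles. Slc10a4 was at 26.5, 16.7 and 28.1 CPM in control, 33.1, 16.5 and 21.5 in NFKO, 18.0 and 43.5 in AnkGKO, and 34.2, 38.2 and 32.2 in DKO, with the same 3 lowest libraries and the same highest library as Chat. The likeness is over 11 libraries and is a description.

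Other genes of the same pathways were taken from lists, and 0 genes of any list were called in any of the comparisons by edgeR. DESeq2 called 1, Ret in DKO against NFKO, beside 418 of 17557 genes in that comparison. Over all genes tested, 7.65% were higher in DKO than in control without overlap, 6.8% were lower without overlap and 7.77% had an unadjusted p under 0.05. Of 8 other genes of acetylcholine handling, 3 were higher without overlap and 1 had an unadjusted p under 0.05, with a median log2 fold change of 0.09. Ache, acetylcholinesterase, was at 255 to 276 CPM in control and 273 to 282 in DKO (log2 fold change 0.05, edgeR adjusted p = 0.912), Slc44a1, a choline transporter, at 265 to 294 and 294 to 318 (0.13, edgeR adjusted p = 0.679), and Chka, choline kinase, at 50.9 to 55.1 and 44.8 to 54.5 (-0.08, edgeR adjusted p = 0.814). Over all 11 libraries Ache ran from 194 to 282 CPM, Slc44a1 from 265 to 327 and Chka from 44.8 to 55.1, narrower ranges in proportion than the 29.5 to 66.7 CPM of Chat. Of 21 acetylcholine receptor genes, 18 were tested, with 1 at an unadjusted p under 0.05 and a median of -0.04 in DKO, and Chrnb2, Chrna4 and Chrm2, the most abundant, were at 0.01, -0.10 and -0.02.

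The neurofilament genes, partners of peripherin in axons, had the same 3 lowest libraries again in Nefl. Nefl was at 2259, 1587 and 2475 CPM in control, 2609, 1698 and 2044 in NFKO, 1799 and 2964 in AnkGKO, and 2678, 2590 and 2798 in DKO. Its log2 fold change was 0.35 in DKO (standard error 0.23, edgeR adjusted p = 0.699), beside 0.30 for Nefm, 0.21 for Nefh and -0.15 for Ina, the fourth gene of the list. Ina, at 261 to 298 CPM in control and 241 to 263 in DKO, was the 1 gene of the 4 with an unadjusted p under 0.05 (edgeR adjusted p = 0.629), beside 7.77% of all genes, and Nefl and Nefm were higher without overlap, beside 7.65%. Of 9 motor neuron subtype genes, 8 had a positive value in DKO, 3 were higher without overlap (7.65% of all genes) and 2 had an unadjusted p under 0.05 (7.77%). Ret, a receptor for a neurotrophic factor, was at 161 to 211 CPM in control and 250 to 298 in DKO (log2 fold change 0.50, standard error 0.14, edgeR adjusted p = 0.562), and its value in DKO against NFKO was 0.61 (edgeR adjusted p = 0.0939). Spp1, osteopontin, was at 110 to 153 CPM in control, 167 to 209 in NFKO and 185 to 198 in DKO (0.47, standard error 0.15, edgeR adjusted p = 0.588), and Gfra1, a co-receptor of Ret, was at 0.22 (edgeR adjusted p = 0.707). Of 11 other motor neuron transcription factors, 0 were higher in DKO without overlap (7.65% of all genes), 1, Olig2, was lower without overlap (6.8%) and 2, Olig2 and Nkx6-1, had an unadjusted p under 0.05 (7.77%), and the median was 0.01. The 3 most abundant were Esrrg, at 103 to 131 CPM in control and 111.4 to 132 in DKO, Olig2, at 81.0 to 81.7 and 53.6 to 74.9, and Nkx6-2, at 53.3 to 59.0 and 56.0 to 59.8, and the last 2 are also genes of the oligodendrocyte lineage.

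Of 5 other genes of the CGRP system, 2, Calcb and Ramp3, had an unadjusted p under 0.05, beside 7.77% of all genes. Ramp1, Ramp2 and Calcrl, which form its receptor and those of related peptides, had log2 fold changes of -0.06, 0.05 and 0.15 in DKO against control. Ramp3, a further receptor subunit, was at 3.48 to 5.42 CPM in control and 2.38 to 3.18 in DKO, lower without overlap (log2 fold change -0.57, standard error 0.26, edgeR adjusted p = 0.629). Calcb, which encodes another form of CGRP and is named here after its values were seen, was at 9.25, 5.07 and 10.8 CPM in control, 16.9, 9.71 and 11.2 in NFKO, 7.57 and 17.7 in AnkGKO, and 19.04, 25.1 and 19.5 in DKO. Its log2 fold change was 1.34 (standard error 0.38, edgeR adjusted p = 0.570), and it shares 50-base words with Calca, 0.487% of Calca's. The DKO libraries did not overlap with any other library in Calcb, as in Calca. Of the urotensin system, the receptor gene Uts2r was at 0 to 0.230 CPM, near the floor, and Uts2b was not analysed here.

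Per kilobase of exon, the level in control was 36.9 CPM for Prph, 25.5 for Slc18a3, 20.04 for Slc5a7, 14.0 for Calca, 7.23 for Uts2, 6.93 for Chat, 0.72 for Mnx1 and 0.53 for Isl1. Neighbours in this order differed by less than the sum of their SDs (13.6 for Prph, 7.07 for Slc18a3, 4.91 for Slc5a7, 4.97 for Calca, 2.99 for Uts2 and 1.94 for Chat), except between Chat and Mnx1. In DKO, Prph was at 61.9, Calca at 54.2, Uts2 at 43.8, Slc18a3 at 39.7, Slc5a7 at 34.3, Chat at 9.93, Mnx1 at 1.25 and Isl1 at 1.06 CPM per kilobase. Calca and Uts2 stood higher in this order than in control, but the means of Calca (SD 18.4), Uts2 (SD 4.42) and Slc18a3 (SD 2.79) in DKO differed from each other by less than the sum of their SDs. With the longest transcript as length, Chat (11.5) lay above Uts2 (7.23) and Isl1 (0.835) above Mnx1 (0.722) in control.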

How the data were processed

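Bulk RNA-seq of polyadenylated RNA from 11 libraries (3 control, 3 NFKO, 2 AnkGKO and 3 DKO) was analysed from 2 tables that the authors deposited. The authors trimmed the reads (Trimmomatic 0.39), aligned them to GRCm39 (STAR 2.7.11a) and deposited raw counts per gene. Their second table is a normalized signal that the authors made by dividing each library's counts by 1 size factor (0.815 to 1.16). The labels give single-end reads of 100 bases, the paper paired-end reads, and 3 AnkGKO mice are named there. Counts were tested with edgeR 4.0.16 (TMM, robust quasi-likelihood fits, Benjamini-Hochberg adjustment over 17557 genes), with DESeq2 1.42.0 as an alternative, and both were tested on simulated data. The 5 summary lines of the count table were left out. Nothing in the labels ties libraries to cages or extractions, all are given as batch 1, and p-values measure the spread between libraries, none of which were duplicates. Replicate numbers were used only in the replicate block, an alternative, and the main fits took no pairing. Same-numbered NFKO and control libraries deviated together (r = 0.57, 0.48 and 0.26), but control with AnkGKO gave r = -0.38 and -0.47. Over all genotype pairs 7 of 15 correlations exceeded 0.1. Likeness used log2 CPM with a prior count of 2. Gene models, promoters and coding sequence came from GENCODE vM39 on GRCm39. The members, pathway lists and marker lists were chosen with earlier results of these data known. Some marker genes are not reported here. Named are the 8 members, the called and the 3 most abundant genes of each list, the 5 genes most like Uts2 and Chat, the neighbours of Uts2, and Nfasc and Ank3. Ina, Nkx6-1, Ramp3, Hoxb7, Hoxb8, Hoxb9 and the Purkinje cell genes were named after their values were seen. Alternatives were other size factors, filters, fold thresholds, only the libraries compared, covariates (granule cell genes, Hox groups 6 to 9, Xist, Chat and, added after its values were seen, Hoxc8), the replicate block and leaving out each library.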

Additional observations from a re-analysis of the deposited data

How the results depend on the processing

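With 11 libraries and 2 in AnkGKO, the spread within genotypes limits what the test can call, and counts of Mnx1 and Isl1 are low. DESeq2 called 1 motor neuron gene in DKO against control (Calca) in place of 0, and the covariate of Hox groups 6 to 9 called 1 in DKO against NFKO (Chat, adjusted p = 0.0457, beside 0.775% of all genes). The replicate block left the number called at 0 in each comparison and gave 2.65 for Uts2 in DKO against control. Over all alternatives Uts2 in DKO against control was 2.32 to 2.94. The longest transcript as length gave 11.5, 0.835 and 20.6 CPM per kilobase in control for Chat, Isl1 and Calca, and the median likeness of Uts2 was 0.55 to 0.81 when a library was left out. Small log2 fold changes turned in sign, and none of them was called. With covariates, NFKO against control was -0.032 for Slc5a7 (Xist), and for Slc18a3 -0.074 (Hox groups), -0.12 (Xist) and -0.042 (Hoxc8). AnkGKO against control was -0.074 for Chat (Xist), and for Prph -0.13 (Hox groups), -0.14 (Xist) and -0.13 (Hoxc8), and the interaction of Slc5a7 was 0.16 (Hox groups) and 0.62 (Xist). When each library was left out in turn, NFKO against control ran from -0.40 to 0.0061 for Chat, -0.082 to 0.42 for Slc5a7, -0.12 to 0.33 for Slc18a3 and -0.25 to 0.10 for Isl1. AnkGKO against control ran from -0.32 to 0.63 for Chat, -0.052 to 1.04 for Slc5a7, -0.33 to 0.92 for Slc18a3, -0.30 to 0.94 for Mnx1, -0.38 to 0.75 for Isl1, -0.64 to 0.66 for Prph and -0.12 to 1.04 for Calca. DKO against AnkGKO ran from -0.11 to 0.84 for Chat, -0.26 to 0.82 for Slc5a7, -0.28 to 0.96 for Slc18a3 and -0.14 to 1.09 for Mnx1, and the interaction from -0.52 to 0.57 for Slc5a7, -0.40 to 0.84 for Slc18a3 and -0.43 to 0.80 for Mnx1.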
